A study of Mus musculus with 5 samples.

Results

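Barcodes of low RNA content that carried transcripts of Sertoli cells were examined in the single-cell libraries made from synchronized mouse testes at 144, 350.4 and 763.2 h. A barcode was taken when it had at least 1000 and under 5000 UMIs (unique molecular identifiers, each standing for 1 captured RNA molecule), under 50% of them from the mitochondrial genome, at least 4 of the 7 Sertoli genes Cst9, Cst12, Defb19, Clu, Tsx, Ptgds and Rhox5 detected, and these 7 genes at 0.4% of its UMIs or more. This gave 2199 shallow Sertoli barcodes among the 46451 barcodes of the series: 1123 at 144 h, 592 at 350.4 h and 484 at 763.2 h, which were 11.7%, 7.96% and 4.04% of the barcodes of those libraries. The series holds 5 libraries of whole testis, 1 at each of 0 h (labelled as the control), 144, 350.4, 556.8 and 763.2 h, timed to the recurrence of stages VIII-IX in the tubules. The tubules were freed with collagenase, settled and rinsed, then broken up with trypsin in the presence of DNase and strained. All 5 libraries are labelled as synchronized. The labels do not state the strain or age of the mice, the agent that synchronized them, or how many animals stand behind a library. With 1 library per time, and barcodes of a library not being replicates, no test was possible, and the 95% intervals below cover counting error only.

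Sertoli cells are the somatic cells of the seminiferous tubule. Each is large and reaches from the tubule wall to the lumen, with thin arms of cytoplasm wrapped around the germ cells it nourishes, and it secretes proteins such as clusterin (Clu), cystatin-related proteins (Cst9, Cst12) and the defensin-like protein Defb19. In a droplet library a barcode can tag a whole cell, a piece of a cell, cells that share a droplet, or RNA that was free in the suspension. Transcripts of the mitochondrial genome are held inside mitochondria, and long non-coding RNAs such as Malat1 and Neat1 are held in the nucleus, while messenger RNAs of ribosomal proteins and respiratory chain subunits are mostly in the cytoplasm.

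The shallow Sertoli barcodes were set beside 2 other sets of barcodes from the same library. Deep Sertoli barcodes met the same marker and mitochondrial limits but had 5000 UMIs or more, and numbered 1665, 341 and 107 at 144, 350.4 and 763.2 h. Other shallow barcodes were of the same depth as the shallow Sertoli barcodes and failed the marker rule, and numbered 726, 1905 and 7917. The median depth of the shallow Sertoli barcodes was 1644, 1388 and 2206.5 UMIs, against 19350, 29485 and 17375 UMIs in deep Sertoli barcodes. They held 2259402, 1001517 and 1160088 UMIs in all, with a median of 1014, 907 and 1293 genes per barcode. No barcode of the 763.2 h library had under 1821 UMIs, so its shallow Sertoli barcodes cover only the upper stretch of the depth range, starting at 1822 UMIs. The barcode sequence of 9, 4 and 4 of them also occurred in another library, and none met the rule in both.

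The 7 genes that chose the barcodes made up a median 2.47%, 2.01% and 0.772% of the UMIs of shallow Sertoli barcodes at 144, 350.4 and 763.2 h, and 2.12%, 2.16% and 2.11% in deep Sertoli barcodes. Summed over barcodes, Defb19 stood at 7679, 6785 and 3204 CPM (UMIs of the gene scaled to a total of 1000000 UMIs in the set) in shallow Sertoli barcodes and at 6269, 6788 and 6965 CPM in deep ones. Clu stood at 6783, 3691 and 1909 CPM in shallow and 7074, 5315 and 5390 CPM in deep Sertoli barcodes. The barcodes were chosen by their UMI count, mitochondrial share and these 7 genes, so the values only describe which barcodes the rule took: at 763.2 h it took barcodes with a lower Sertoli content. Barcodes just inside and just outside the depth limits had similar mitochondrial shares at 144 h, and those at the marker limits differed in several values. At 144 h the 134 barcodes with 1000 to under 1100 UMIs had a median mitochondrial share of 4.84%, and the 159 just below, with 900 UMIs or more, had 4.51%. At the upper limit the 36 barcodes from 4500 to under 5000 UMIs had 8.96%, and the 22 from 5000 UMIs, the next bin of that width, had 8.55%. At 350.4 h the few barcodes of these bins were further apart, with 14.3% in 8 inside and 9.97% in 5 outside. At 763.2 h the 71 barcodes with a marker share of 0.4 to 0.5% held a median 4.91% of germ cell transcripts, and the 90 with 0.3 to 0.4%, outside the rule, held 5.05%, while their median mitochondrial shares were 6.64% and 3.68%. At 144 h the 569 barcodes with exactly 4 markers had a median marker share of 2.44% and 2.17% of Sertoli transcripts outside the rule, and the 53 with exactly 3, left out, had 0.692% and 1.02%. A further 30, 24 and 2 barcodes were left out by the mitochondrial limit of 50%.

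The distance between shallow and deep Sertoli barcodes over all genes was small at 144 h and large at 763.2 h. Genes were counted as apart when their CPM differed at least 2-fold, with 50 UMIs and 50 CPM or more in the higher set. A gene scarce in either set thus entered only through its level in the other, which tilts counts over lists of scarce genes. At 144 h 141 of 3738 genes compared were apart, a background of 3.77%, of which 6 were higher (0.161%) and 135 lower (3.61%) in shallow Sertoli barcodes. At 350.4 h 951 of 4156 genes (22.9%) were apart, 611 higher (14.7%) and 340 lower (8.18%). At 763.2 h 3001 of 4636 genes (64.7%) were apart, 1513 higher (32.6%) and 1488 lower (32.1%). The median log2 ratio of all genes compared was 0.15, 0.09 and 0.02. At 763.2 h this median near 0 came from genes lying far off in both directions. With mitochondrial UMIs left out of the library size the counts were 4 higher and 221 lower at 144 h, 526 higher and 629 lower at 350.4 h, and 1433 higher and 2104 lower at 763.2 h, and the median shifted by -0.11, -0.19 and -0.23 on the log2 scale.

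Transcripts of the mitochondrial genome took a smaller share of the RNA in shallow than in deep Sertoli barcodes in all 3 libraries. They were 8.30%, 11.9% and 10.1% of the summed UMIs of shallow Sertoli barcodes at 144, 350.4 and 763.2 h, against 15.1%, 22.9% and 23.2% in deep Sertoli barcodes. The ratio of the shares was 0.550 (95% interval 0.547 to 0.552), 0.518 (0.515 to 0.521) and 0.436 (0.434 to 0.439). Of the 13 mitochondrial genes none was 2-fold higher, and 4 of 12 compared, 6 of 13 and 12 of 13 were 2-fold lower, against the backgrounds of 3.61%, 8.18% and 32.1% given above. The gene for the first subunit of cytochrome c oxidase, mt-Co1, stood at 9983, 13334 and 12174 CPM in shallow and at 17487, 27921 and 31644 CPM in deep Sertoli barcodes. The gene for a subunit of complex I, mt-Nd1, stood at 4119, 6059 and 4641 CPM in shallow and at 8405, 12598 and 12846 CPM in deep Sertoli barcodes.

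**Figure D1:**
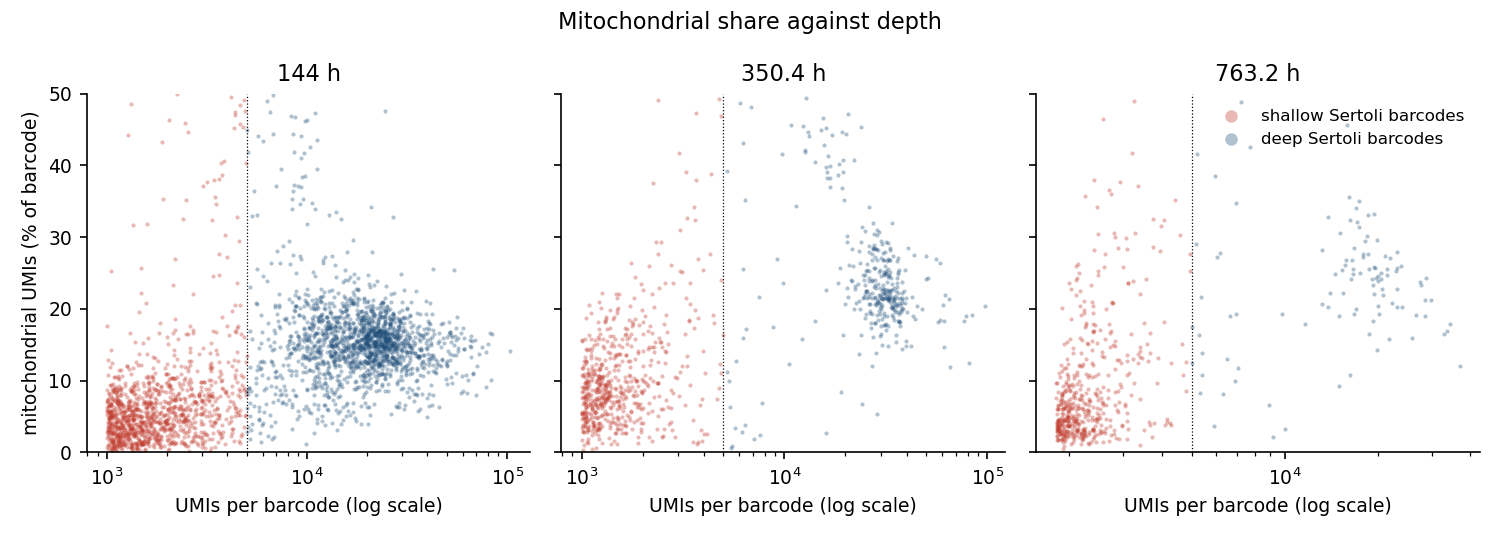
Each point is a barcode that meets the Sertoli marker rule, plotted by its UMI count (horizontal, log axis) and the percent of its UMIs from the mitochondrial genome (vertical), with 1 panel for each of 144, 350.4 and 763.2 h. Shallow Sertoli barcodes had median shares of 5.20%, 8.94% and 6.25%, and deep Sertoli barcodes 15.1%, 22.2% and 23.9%.

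Barcode by barcode, the median mitochondrial share was 5.20%, 8.94% and 6.25% in shallow Sertoli barcodes, with the middle 50% of barcodes between 2.90% and 8.29%, 5.81% and 13.6%, and 3.69% and 12.3%. It was 15.1%, 22.2% and 23.9% in deep Sertoli barcodes, and 4.70%, 4.98% and 2.33% in other shallow barcodes. The shallow Sertoli barcodes thus lay far nearer to other barcodes of their own depth than to deep Sertoli barcodes, and above them by the pooled share at the later times, where the ratio to other shallow barcodes was 0.875 at 144 h, 1.45 at 350.4 h and 2.05 at 763.2 h. Nuclear-encoded subunits of the same respiratory chain did not share the lower level. The sum of 15 such genes, among them the ATP synthase gene Atp5b and the complex IV gene Cox4i1, was 1.23, 1.28 and 1.24 times its level in deep Sertoli barcodes. With mitochondrial UMIs left out of the library size the sum was 1.14, 1.12 and 1.06 times, so part of the excess came from scaling. All 15 were within 2-fold at 144 and 350.4 h, and 14 of 15 at 763.2 h, where the list's median gene lay the other way (log2 ratio -0.19). Cytosolic ribosomal protein genes summed to 1.22, 1.36 and 1.25 times their level in deep Sertoli barcodes, and to 1.13, 1.19 and 1.07 times without mitochondrial UMIs. Of the 77, 78 and 79 compared, 0, 1 and 8 were 2-fold higher and 0, 0 and 4 were 2-fold lower. Their sum was 0.595, 0.782 and 1.00 times that of other shallow barcodes.

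RNAs that stay in the nucleus were also scarcer in shallow Sertoli barcodes, by a wider margin than mitochondrial RNA at 144 and 763.2 h. Of a list of 9 such long non-coding RNAs, 6 were in the files. They made up 0.376%, 0.330% and 0.0878% of the summed UMIs of shallow Sertoli barcodes at 144, 350.4 and 763.2 h, against 1.5%, 0.675% and 0.682% in deep Sertoli barcodes. The ratio was 0.251 (95% interval 0.246 to 0.257), 0.489 (0.472 to 0.506) and 0.129 (0.121 to 0.137). Malat1, which is found in nuclear speckles, held most of these UMIs. It stood at 3659, 2882 and 845 CPM in shallow Sertoli barcodes, at 14761, 6608 and 6665 CPM in deep Sertoli barcodes, and at 9935, 5430 and 1647 CPM in other shallow barcodes. Neat1, the scaffold RNA of paraspeckles, stood at 17, 62 and 8 CPM in shallow and at 65, 52 and 66 CPM in deep Sertoli barcodes. Its level was thus lower at 144 and 763.2 h and not at 350.4 h. At 350.4 h the list's median gene lay slightly the other way (log2 ratio 0.27). Kcnq1ot1, the antisense RNA of the Kcnq1 imprinted region, lay further that way. It stood at 354 CPM in shallow and at 92 CPM in deep Sertoli barcodes, with 968 CPM in other shallow barcodes.

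**Figure D2:**
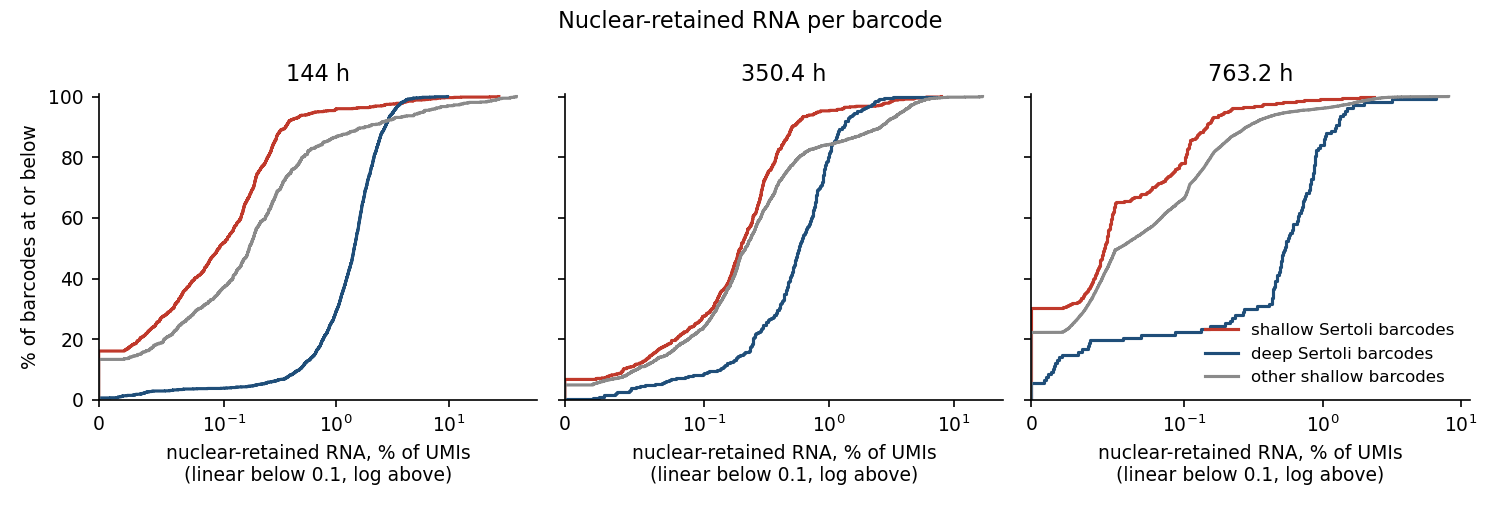
Cumulative share of barcodes (vertical) by the percent of a barcode's UMIs from the 6 nuclear-retained RNAs (horizontal) for shallow Sertoli, deep Sertoli and other shallow barcodes, with 1 panel per library. The curve of the shallow Sertoli barcodes lies left of that of deep Sertoli barcodes in each panel, with medians of 0.0962%, 0.198% and 0.0480% against 1.45%, 0.580% and 0.531%.

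The low level was shared by nearly all shallow Sertoli barcodes, and the pooled share at 144 h came from few of them. The median nuclear share per barcode was 0.0962%, 0.198% and 0.0480% in shallow Sertoli barcodes, against 1.45%, 0.580% and 0.531% in deep Sertoli barcodes and 0.169%, 0.216% and 0.0572% in other shallow barcodes. No UMI of these RNAs was found in 181 (16.1%), 40 (6.76%) and 146 (30.2%) shallow Sertoli barcodes, and in 11, 1 and 6 deep ones. With every barcode thinned to 1000 UMIs, so that depth did not set the chance of detection, Malat1 was found in 66.6%, 79.7% and 42.6% of shallow Sertoli barcodes, against 96.8%, 93.0% and 77.6% of deep Sertoli barcodes and 73.7%, 83.0% and 48.5% of other shallow barcodes. At 144 h 47 shallow Sertoli barcodes (4.19%) with a nuclear share of 1% or more held 69.9% of the nuclear UMIs of the whole set. Those 47 had a pooled mitochondrial share of 33.6% and a ribosomal protein share of 3.73%. At 350.4 h 28 such barcodes (4.73%) held 43.2% of the nuclear UMIs, with a mitochondrial share of 11.7%, and at 763.2 h 4 barcodes (0.826%) held 25.9%. Leaving out barcodes with a mitochondrial share of 20% or more lowered the ratio to deep Sertoli barcodes at 144 h to 0.135.

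The result for nuclear RNA depended on which RNAs were counted. Annotation of a gene as long non-coding RNA does not show that its transcript stays in the nucleus. Over all 5931 genes in the files that are annotated as long non-coding RNA, the share in shallow over deep Sertoli barcodes was 0.554 at 144 h but 2.47 at 350.4 h and 1.89 at 763.2 h. The transcript that held the most of these UMIs in shallow Sertoli barcodes was Gm42418, a gene model that overlaps a ribosomal RNA repeat. It stood at 4433, 28219 and 12673 CPM in shallow Sertoli barcodes, at 2199, 4912 and 5447 CPM in deep ones and at 5199, 25859 and 8712 CPM in other shallow barcodes. Without Gm42418 and its neighbour AY036118 the ratio was 0.388, 1.13 and 1.75. Other long non-coding RNAs with many UMIs at 763.2 h were highest in other shallow barcodes. Rbakdn stood at 2431 CPM in shallow Sertoli, 538 CPM in deep Sertoli and 3238 CPM in other shallow barcodes. In the same order Gm11837 stood at 951, 223 and 1201 CPM and 1700018B24Rik at 641, 140 and 828 CPM. Malat1 was highest in deep Sertoli barcodes, as given above. Without Malat1 the list of nuclear RNAs had ratios of 0.496, 2.86 and 0.212, so at 350.4 h the lower share rested on Malat1.

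Mitochondrial and nuclear shares of Sertoli barcodes varied with depth. When all barcodes with the Sertoli markers were placed in bins of depth, the pooled mitochondrial share at 144 h was 4.80% from 500 UMIs, 5.10% from 1000, 6.0% from 1500, 7.54% from 2000 and 12.6% from 3000 to under 5000 UMIs. It was 17.5% from 5000 UMIs, 15.5% from 10000 and 14.8% from 20000 UMIs. The mitochondrial share therefore went up with depth within the shallow range and levelled off above 5000 UMIs. The nuclear share at 144 h was 0.347%, 0.271%, 0.380%, 0.385% and 0.450% in the 5 bins below 5000 UMIs, and 1.38%, 1.71% and 1.42% in the 3 bins above, so it stepped up between 3000 and 10000 UMIs. At 350.4 h the mitochondrial share of the bins was 7.43%, 8.74%, 10.3%, 13.1%, 19%, 19.4%, 34.6% and 22.2%, and the nuclear share was 0.398%, 0.400%, 0.269%, 0.271%, 0.303%, 0.594%, 1.11% and 0.648%. At 763.2 h, where the first filled bin began at 1500 UMIs, the mitochondrial share was 5.44%, 9.91%, 16.0%, 20.0%, 25.5% and 21.5%, and the nuclear share was 0.0860%, 0.0645%, 0.154%, 0.299%, 0.843% and 0.596%. In all 3 libraries both shares were lower in every bin under 5000 UMIs than in either bin from 10000 UMIs. The smallest of these bins held 25 barcodes.

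**Figure D3:**
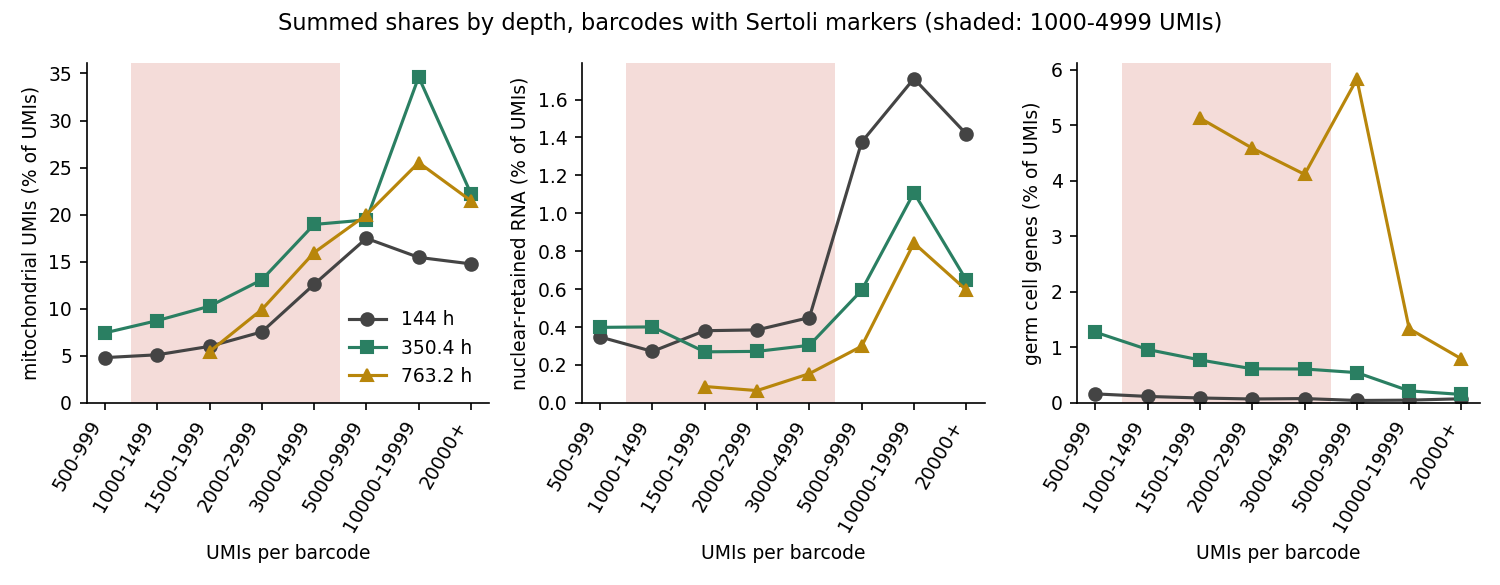
Pooled percent of UMIs (vertical, linear axis) from mitochondrial genes, nuclear-retained RNAs and germ cell genes, each in its own panel. Barcodes with the Sertoli markers are shown by bin of UMIs per barcode (horizontal), for 144, 350.4 and 763.2 h. The mitochondrial share at 144 h is 4.80% in the lowest bin and 14.8% in the highest, and the germ cell share at 350.4 h is 1.27% in the lowest bin and 0.151% in the highest.

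Sertoli genes that the rule did not use were near their level in deep Sertoli barcodes at 144 h and lower later. The 7 rule genes chose both sets, so their medians at 763.2 h (0.772% of UMIs in shallow, 2.11% in deep Sertoli barcodes) only describe that choice. A list of 32 further Sertoli genes summed to 21575, 14945 and 6028 CPM in shallow Sertoli barcodes at 144, 350.4 and 763.2 h, against 19047, 17871 and 15609 CPM in deep Sertoli barcodes, ratios of 1.13, 0.836 and 0.386. None of 25 compared was 2-fold apart at 144 h. At 350.4 h 1 of 27 was higher and 6 were lower, and at 763.2 h 1 of 24 was higher and 20 were lower, against backgrounds of 8.18% and 32.1% lower. These counts were tilted downward, because a gene scarce in shallow Sertoli barcodes could enter only through deep ones. The sums had no such floor. Against other shallow barcodes, a contrast that the rule itself set by its Sertoli markers, 22.8%, 17.3% and 9.53% of all genes compared were 2-fold higher and 21.2%, 16.3% and 1.43% lower (44%, 33.5% and 11% either way), and 23 of 24, 19 of 21 and 11 of 12 of the list were higher. The list's summed ratio to other shallow barcodes was 8.63, 13.5 and 7.41. Because the rule fixed this contrast, nothing about the label is read from it.

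Within that list Sox9 and Wt1 were lower, relative to deep Sertoli barcodes, than Inha, Amhr2 and Ctsl in each library. Inha, the alpha subunit of inhibin, stood at 1765, 1002 and 259 CPM in shallow Sertoli barcodes, at 1640, 1181 and 733 CPM in deep ones, and at 111, 43 and 13 CPM in other shallow barcodes. Amhr2, the receptor of anti-Müllerian hormone, stood at 1052, 1229 and 514 CPM in shallow and 983, 1431 and 1475 CPM in deep Sertoli barcodes, and Ctsl, a lysosomal and secreted protease, at 3932, 4026 and 1688 CPM in shallow and 3735, 4942 and 4958 CPM in deep ones. Both were close to their level in deep Sertoli barcodes at 144 h and well below it at 763.2 h. Sox9, the transcription factor that directs Sertoli fate, stood at 310, 112 and 40 CPM in shallow, 470, 312 and 218 CPM in deep Sertoli and 30, 13 and 2 CPM in other shallow barcodes. Wt1, a transcription factor needed to keep that fate, stood at 247, 104 and 40 CPM in shallow and 338, 291 and 286 CPM in deep Sertoli barcodes. Cldn11, a tight junction protein of the blood-testis barrier, stood at 500, 307 and 91 CPM in shallow and 603, 444 and 409 CPM in deep Sertoli barcodes. A list of 10 Sertoli nuclear factors had none of 10 compared 2-fold apart at 144 h, 4 of 9 lower at 350.4 h and 5 of 6 lower at 763.2 h, with median log2 ratios of -0.18, -0.48 and -1.97. A list of 14 secreted proteins had none of 7, 1 of 8 and 4 of 8 lower, with medians of 0.11, -0.14 and -1.20, beside 0.15, 0.09 and 0.02 for all genes. Of all genes 3.61%, 8.18% and 32.1% were lower, so the share of secreted proteins lower at 763.2 h was not far from the background. The counts and medians of both lists were tilted downward, as genes scarce in shallow Sertoli barcodes entered only through deep ones. Cst8, a cystatin, was the exception in the other direction, at 51 and 394 CPM in shallow and 13 and 97 CPM in deep Sertoli barcodes at 350.4 and 763.2 h. Its level in other shallow barcodes was 107 and 471 CPM, above that of either Sertoli set. In barcodes thinned to 1000 UMIs Amhr2 was found in 63.0%, 62.2% and 38.4% of shallow Sertoli barcodes, 62%, 76.0% and 65.4% of deep ones and 7.58%, 5.67% and 2.54% of other shallow barcodes.

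Germ cell transcripts were more abundant in shallow than in deep Sertoli barcodes, and their share was higher in each later library, as it was in the other shallow barcodes. The sum of 58 germ cell genes was 0.0862%, 0.787% and 4.62% of the UMIs of shallow Sertoli barcodes at 144, 350.4 and 763.2 h, against 0.0642%, 0.162% and 1.49% in deep Sertoli barcodes and 0.532%, 1.85% and 5.31% in other shallow barcodes. The ratio to deep Sertoli barcodes was 1.34 (95% interval 1.28 to 1.40), 4.87 (4.74 to 5.01) and 3.09 (3.05 to 3.14), and that to other shallow barcodes 0.162, 0.425 and 0.870. None of 8 germ cell genes compared with deep Sertoli barcodes was 2-fold apart at 144 h. At 350.4 h 31 of 33 were higher, against a background of 14.7%. At 763.2 h 36 of 40 were higher and 1 was lower, against a background of 32.6%. A germ cell gene scarce in deep Sertoli barcodes entered these counts only if it passed the UMI and CPM floors in shallow ones. The counts were thus tilted towards genes higher in shallow Sertoli barcodes, while the sums of the 58 genes had no such floor. Leaving out barcodes of 20% mitochondrial RNA or more left 90 and 35 deep Sertoli barcodes at 350.4 and 763.2 h and gave ratios of 3.05 and 1.5.

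**Figure D4:**
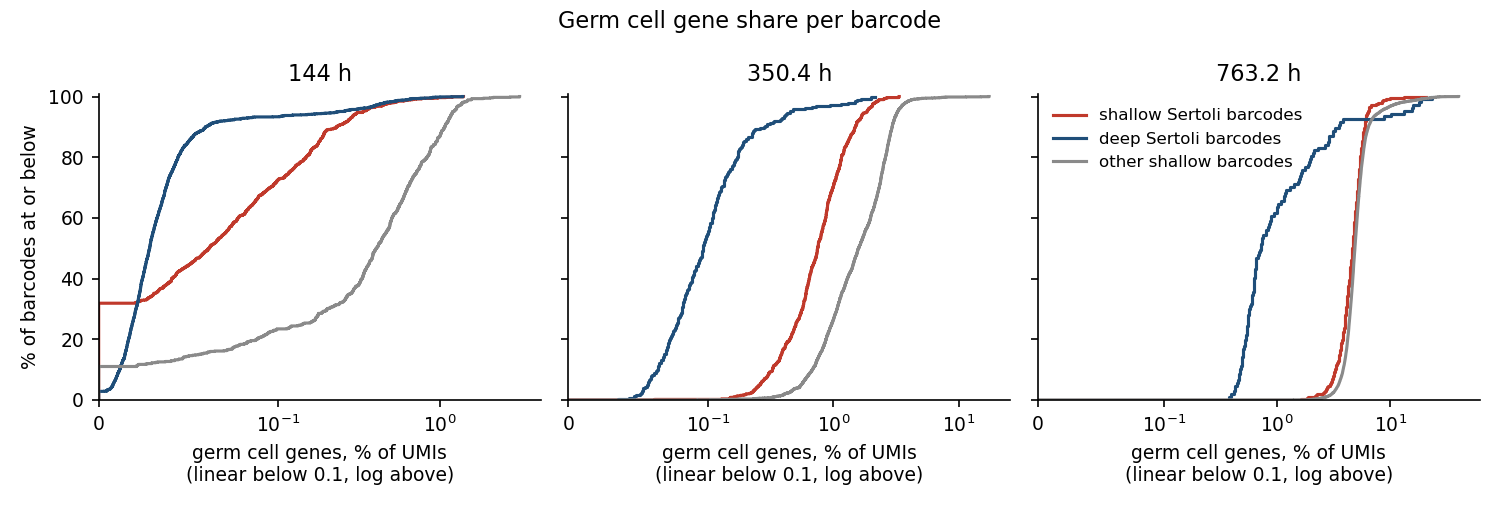
Cumulative share of barcodes (vertical) by the percent of a barcode's UMIs from 58 germ cell genes (horizontal) for shallow Sertoli, deep Sertoli and other shallow barcodes, with 1 panel per library. At 763.2 h the shallow Sertoli barcodes (median 4.64%) lie close to other shallow barcodes (median 4.88%) and right of deep Sertoli barcodes (median 0.717%), while at 144 h they lie close to deep Sertoli barcodes.

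The median germ cell share per barcode was 0.0614%, 0.749% and 4.64% in shallow Sertoli barcodes, 0.0284%, 0.0965% and 0.717% in deep Sertoli barcodes and 0.405%, 1.59% and 4.88% in other shallow barcodes. The germ cell share of other shallow barcodes was reached by few shallow Sertoli barcodes at first and by many at the last time: 37 (3.29%), 48 (8.11%) and 192 (39.7%) were at or above the other shallow median, and 46 (2.76%), 4 (1.17%) and 8 (7.48%) deep Sertoli barcodes were. At 144 h 358 shallow Sertoli barcodes (31.9%) had no germ cell UMI. At 763.2 h the germ cell share of 90% of shallow Sertoli barcodes lay between 2.92% and 6.34%. Its SD over barcodes was 1.41 percentage points, 3.22 times the 0.439 that counting alone would give for a single shared proportion, and at 350.4 h the SD was 0.488 against 0.231 percentage points. In the bins of depth the germ cell share of Sertoli barcodes at 350.4 h was 1.27%, 0.960%, 0.772%, 0.613%, 0.609%, 0.544%, 0.215% and 0.151%, the shallowest bin being the highest.

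Which germ cell genes were present in shallow Sertoli barcodes differed between the libraries. Stra8, which is switched on at entry into meiosis, stood at 81 CPM in shallow Sertoli, 58 CPM in deep Sertoli and 655 CPM in other shallow barcodes at 144 h. Ldhc, the lactate dehydrogenase of spermatocytes and spermatids, stood at 1569 and 5819 CPM in shallow Sertoli barcodes at 350.4 and 763.2 h, at 230 and 1312 CPM in deep Sertoli barcodes and at 3080 and 7654 CPM in other shallow barcodes. Prm1, the protamine that packs sperm DNA, had no UMI in any of the 3 sets at 144 h. At 763.2 h it stood at 8943 CPM in shallow Sertoli, 3194 CPM in deep Sertoli and 8772 CPM in other shallow barcodes, and the transition protein gene Tnp1 at 3647 CPM in shallow Sertoli, 1118 CPM in deep Sertoli and 3615 CPM in other shallow barcodes. In barcodes thinned to 1000 UMIs Prm1 was found at 763.2 h in 100% of shallow Sertoli, 66.4% of deep Sertoli and 99.8% of other shallow barcodes, and Ldhc in 99.4%, 68.2% and 99.7%. Detection this close to all barcodes cannot separate levels. Where detection was lower the sets differed: at 144 h Stra8 was found in 6.95% of shallow Sertoli, 3.72% of deep Sertoli and 32.0% of other shallow barcodes. Sertoli cells are not known to express these genes.

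By stage, the ratio of shallow to deep Sertoli barcodes was 2.87 and 2.03 for 14 spermatogonial genes at 350.4 and 763.2 h, 4.48 and 3.54 for 16 spermatocyte genes, 7.88 and 4.98 for 14 round spermatid genes, and 6.50 and 2.95 for 14 elongating spermatid genes. The genes 2-fold higher were 3 of 4 and 2 of 3 compared for spermatogonia, and 13 of 14 and 6 of 9 for spermatocytes. They were 6 of 6 and 14 of 14 for round spermatids, and 9 of 9 and 14 of 14 for elongating spermatids. The backgrounds were 14.7% and 32.6% of all genes higher. Genes scarce in deep Sertoli barcodes could enter these counts only through their level in shallow ones, so the counts were tilted upward. Set against other shallow barcodes gene by gene, the median ratio over germ cell genes was 0.142 (15 genes), 0.399 (47 genes) and 0.738 (45 genes). At 763.2 h that ratio ran from 0.738 to 1.04 for elongating spermatid genes and from 0.380 to 0.760 for spermatocyte genes, with medians of 0.862 and 0.598, so elongating spermatid genes were nearer to their level in other shallow barcodes. Sycp1, a component of the synaptonemal complex, stood at 79 CPM in shallow Sertoli, 107 CPM in deep Sertoli and 188 CPM in other shallow barcodes at 763.2 h.

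A 2-part description summed up these differences. The summed counts of the shallow Sertoli barcodes, without mitochondrial and rule genes, were fitted as a mix of the profile of deep Sertoli barcodes and that of all barcodes of the library that failed the marker rule. The fitted share of the deep Sertoli profile was 93.5% (95% interval 93.3 to 93.6) at 144 h, 58.6% (58.3 to 58.8) at 350.4 h and 21.1% (21 to 21.3) at 763.2 h. With other shallow barcodes as the second profile it was 93.9%, 56.2% and 21.8%. Germ cell genes as a whole came out at 0.831, 1.07 and 0.937 times the amount that the mix gives, and Sertoli genes outside the rule at 1.12, 1.22 and 1.38 times. At 350.4 h the pooled germ cell value held members far off on both sides: round spermatid genes came out at 2.75 times and elongating spermatid genes at 1.74 times, and spermatogonial genes at 0.748 times and spermatocyte genes at 0.867 times. Nuclear-retained RNAs came out at 0.242, 0.567 and 0.309 times, below the mix in each library. Mitochondrial genes came out at 0.527, 0.635 and 1.26 times, below the mix at 144 and 350.4 h and above it at 763.2 h. Sox9 came out at 0.654, 0.529 and 0.717 times and Wt1 at 0.723, 0.522 and 0.546 times. Aard, a small gene highly expressed in Sertoli cells, came out at 1.32, 1.41 and 1.61 times. The list of Sertoli nuclear factors that holds Sox9 and Wt1 did not share their low values. Its sum came out at 1.01, 1.16 and 1.48 times, and that of the secreted proteins at 1.13, 1.24 and 1.42 times. The mix is a description: whether the germ cell part came from free RNA, from pieces of germ cells or from germ cells in the same droplet was not tested, and droplets without cells were not analysed here.

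Immediate early genes, which respond within minutes to handling of cells, were low in shallow Sertoli barcodes. Of a list of 13 genes of the response to dissociation, 6 of 10 compared were 2-fold lower than in deep Sertoli barcodes at 144 h, 8 of 9 at 350.4 h and 7 of 8 at 763.2 h, against backgrounds of 3.61%, 8.18% and 32.1%. Genes scarce in shallow Sertoli barcodes could enter these counts only through their level in deep ones, so the counts were tilted downward. Fosb, a subunit of the AP-1 transcription factor, stood at 16, 26 and 2 CPM in shallow and at 133, 171 and 59 CPM in deep Sertoli barcodes. Jun, its partner, stood at 293, 126 and 10 CPM in shallow and at 688, 606 and 162 CPM in deep ones, and the transcription factor Egr1 at 100, 66 and 1 CPM in shallow and at 402, 312 and 82 CPM in deep ones. In other shallow barcodes Fosb stood at 89, 27 and 3 CPM and Jun at 204, 54 and 15 CPM, so at the later times the shallow Sertoli barcodes were nearer to these than to deep Sertoli barcodes. Against the 2-profile mix Fosb came out at 0.116, 0.203 and 0.104 times and Egr1 at 0.239, 0.290 and 0.0367 times. After thinning, Jun was found in 23.1%, 9.46% and 0.826% of shallow Sertoli barcodes and in 45.2%, 42.5% and 10.3% of deep ones. The exception was the chaperone gene Hsp90aa1, at 683, 1892 and 2127 CPM in shallow and 565, 722 and 830 CPM in deep Sertoli barcodes, with 1873, 4518 and 2865 CPM in other shallow barcodes. Because of it the list's sum at 763.2 h was 1.34 times that of deep Sertoli barcodes although its median gene was lower (log2 ratio -3.45).

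**Figure D5:**
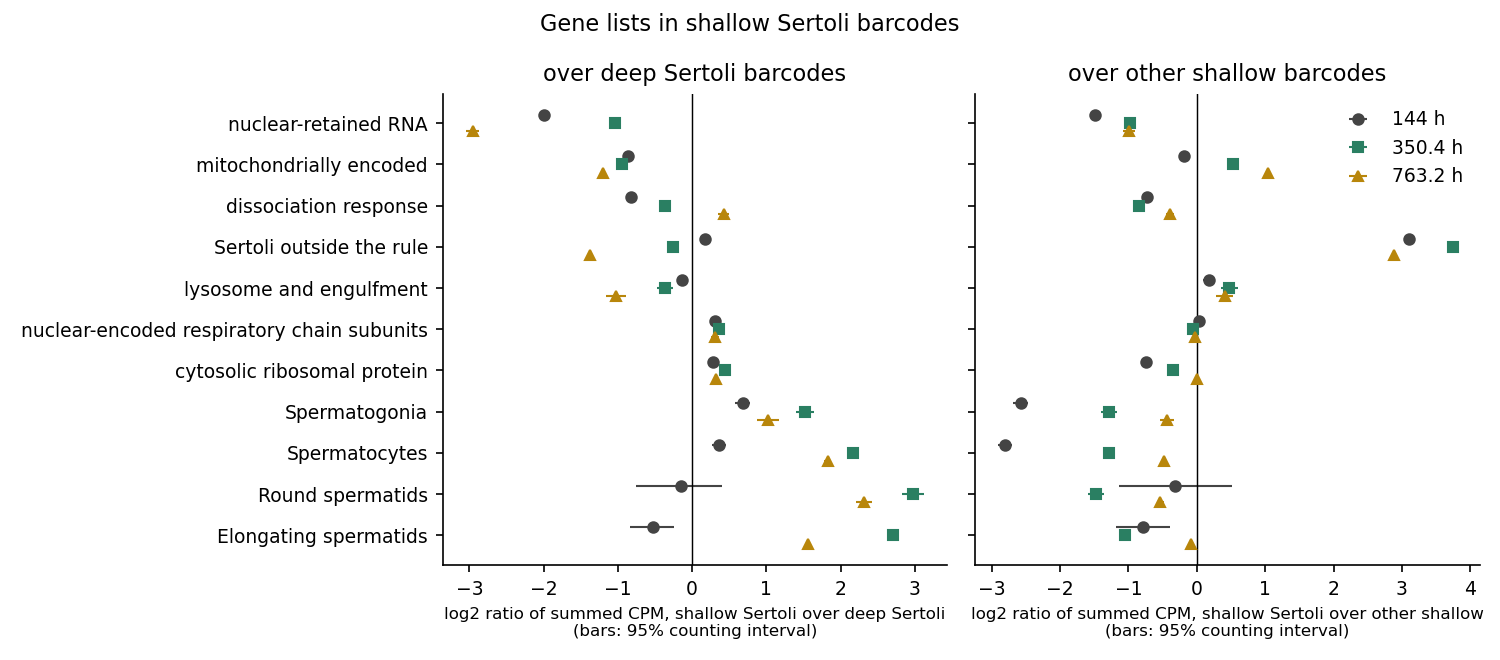
Ratio of summed CPM in shallow Sertoli barcodes over deep Sertoli (left) and over other shallow barcodes (right), on a log axis. Gene lists are shown at 144, 350.4 and 763.2 h with 95% counting intervals. In the left panel nuclear-retained RNA (0.251, 0.489 and 0.129) and mitochondrial genes (0.550, 0.518 and 0.436) lie below a ratio of 1 in each library. The germ cell lists, drawn separately by stage, lie above it there at 350.4 and 763.2 h.

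The genes lowest in shallow relative to deep Sertoli barcodes shared Fosb and Egr1 in all 3 libraries. At 144 h the 8 lowest by the bound of the interval were Fosb, Malat1, Snhg20, Egr1, Alkbh1, Ogt, Zfp398 and Chka, with ratios of 0.120 to 0.299. Ogt, the enzyme that adds N-acetylglucosamine to nuclear and cytosolic proteins, stood at 45 CPM in shallow and 163 CPM in deep Sertoli barcodes. At 350.4 h they were Fosb, Nrip1, Jun, Akr1b10, Notch1, Btg2, Egr1 and Pde4d, with ratios of 0.113 to 0.211. Notch1, a cell surface receptor, stood at 14 CPM in shallow and 95 CPM in deep Sertoli barcodes, and Btg2, an antiproliferative factor, at 54 CPM in shallow and 279 CPM in deep ones. At 763.2 h they were Lcn2, Fabp3, Egr1, Fosb, Jun, Alkbh1, Nfat5 and Zmat1. Lcn2, an iron-carrier binding protein, had a ratio of 0.0119 (95% interval 0.00143 to 0.0434), and Nfat5, the transcription factor of the response to salt stress, 0.0807. Of 2879 genes compared in all 3 libraries, 58 were lower in each and 1 was higher in each. The 58, which included Malat1 and mt-Nd1, were 43.0%, 17.1% and 3.9% of the genes lower at 144, 350.4 and 763.2 h. Among them were the insulin-like growth factor receptor Igf1r, the calcium channel gene Itpr1, the dystrophin relative Utrn and the scaffold gene Akap9, named after their values were seen.

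The genes highest in shallow relative to deep Sertoli barcodes included genes known from spermatids and sperm at 350.4 and 763.2 h. At 350.4 h they were Spata45, Gstt4, Smcp, Tex36, Pbp2, Lrrc18, Tekt4 and Spag6, at 18.5 to 22.3 times their level in deep Sertoli barcodes. Smcp, a protein of the sperm mitochondrial capsule, stood at 164 CPM in shallow Sertoli, 9 CPM in deep Sertoli and 254 CPM in other shallow barcodes. At 763.2 h they were Efcab9, Spata45, Cypt4, Hist1h2bp, Triml1, Spata25, Tsga8 and Fam122c. Efcab9, a partner of the sperm calcium channel CatSper, was at 8.80 times (6.52 to 12.1) and Spata45 at 7.17 times its level in deep Sertoli barcodes. At 144 h the only gene named by the same rule was Crabp1, a retinoic acid binding protein, at 62.4 CPM in shallow and 22.7 CPM in deep Sertoli barcodes (ratio 2.75, 2.28 to 3.29).

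Relative to other shallow barcodes the highest genes outside the rule included known Sertoli genes in each library, a contrast that the choice of barcodes by Sertoli markers fixes in advance. At 144 h they were Eppin, Wfdc10, Cidea, Tmem114, Cldn11, Inha, Rarres1 and Amhr2. Eppin, a protease inhibitor, stood at 313 CPM in shallow Sertoli and 11 CPM in other shallow barcodes. At 350.4 h they were Qpct, Inha, Wfdc6a, Amhr2, Folr1, Ctsl, Wfdc10 and Aard, and Qpct, an enzyme that forms pyroglutamate, was at 28.9 times its level in other shallow barcodes. At 763.2 h they were Clec12b, Mgst1, Dhrs7, Ctsl, Defb36, Qpct, Susd3 and Tst, and Mgst1, a glutathione transferase of membranes, was at 28.4 times its level in other shallow barcodes.

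Markers of other somatic and blood cells differed between shallow and deep Sertoli barcodes by cell type. Red blood cell genes summed to 1058 CPM in shallow Sertoli barcodes at 144 h, against 165 CPM in deep Sertoli barcodes and 21125 CPM in other shallow barcodes, and 1032 of the 1123 shallow Sertoli barcodes (91.9%) had none. At 350.4 and 763.2 h they summed to 29.0 and 25 CPM in shallow and to 25.6 and 71.6 CPM in deep Sertoli barcodes. Leydig cell genes, those of the androgen-making cells outside the tubule, summed to 47.8, 4.99 and 4.31 CPM in shallow and 169, 13.3 and 154 CPM in deep Sertoli barcodes, and stromal genes to 63.7, 6.99 and 6.03 CPM in shallow and 158, 19.6 and 20.5 CPM in deep ones. Peritubular myoid genes summed to 208, 169 and 190 CPM in shallow and 239, 203 and 120 CPM in deep Sertoli barcodes, and macrophage genes to 19.5, 1.00 and 5.17 CPM in shallow and 23.5, 0 and 2.78 CPM in deep ones. Relative to deep Sertoli barcodes, Leydig and stromal genes were thus lower in each library. Red blood cell genes were higher at 144 h, and peritubular myoid genes were higher at 763.2 h (1.57 times). Some shallow Sertoli sums at 350.4 and 763.2 h rested on few UMIs. They were 5 and 5 for Leydig, 7 and 7 for stromal and 1 and 6 for macrophage genes. The part of these cells in the results above was not tested.

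Counts of genes per barcode were little different between the sets at equal depth. In barcodes thinned to 1000 UMIs the median was 697, 698 and 714 genes in shallow Sertoli barcodes, against 670, 633 and 636 genes in deep Sertoli barcodes and 680, 703 and 724 in other shallow barcodes. With mitochondrial UMIs taken out before thinning the order turned round, with 725, 746 and 750 genes in shallow and 759, 776 and 792 genes in deep Sertoli barcodes. Barcodes then left with under 1000 UMIs dropped out. That kept 1049 of 1123, 494 of 592 and 484 of 484 shallow Sertoli barcodes and all deep ones. A score that compares each barcode with simulated pairs of barcodes was 0.25 or more in 63 (5.61%), 23 (3.89%) and 3 (0.620%) shallow Sertoli barcodes, in 6.79%, 4.99% and 0% of deep Sertoli barcodes and in 8.13%, 3.46% and 3.83% of other shallow barcodes. Leaving out barcodes with such scores gave germ cell shares of 0.0665%, 0.768% and 4.57% in shallow and 0.0334%, 0.117% and 1.49% in deep Sertoli barcodes. Both sets had less germ cell RNA without them at 144 and 350.4 h, deep Sertoli barcodes by the wider margin, and the ratio was 1.99, 6.55 and 3.06. Whether a given shallow Sertoli barcode was a piece of a cell, a small or leaky cell, free RNA or a mixed droplet cannot be told apart from these counts.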

How the data were processed

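Whole testis suspensions were measured by droplet single-cell RNA sequencing, 1 library at each of 5 times. The deposited values are counts of UMIs per gene and barcode that the authors made with Cell Ranger (version 3.0.2 per the file headers). The submitters' processing notes name mm10 and Seurat 4.3.0.1. No label or header states how reads were aligned or which barcodes were called cells. The 5 matrices list 27998 genes and hold 7441 to 11987 barcodes with 75578147 to 118147393 UMIs per library, and the lowest barcode total runs from 500 to 2443 UMIs. All barcodes were kept and assigned to sets by UMI count, mitochondrial share and the 7 marker genes, in Python 3.11.15 with numpy 2.4.6, scipy 1.17.1, pandas 2.3.3 and matplotlib 3.10.9. Counts were summed over the barcodes of a set and scaled to a total of 1000000 UMIs (CPM), and ratios carry exact conditional binomial 95% intervals. Shares of barcodes carry exact binomial intervals in the tables. PCR copies were collapsed by UMI before deposit, and intervals cover counting error only. The mix was fitted by Poisson maximum likelihood. The steps were tested on simulated data. Barcodes from 1000 UMIs got a doublet score from the Scrublet routine of scanpy 1.11.5, with an expected rate of 0.08. Its automatic threshold called 380 barcodes at 144 h but 8 at 350.4 h and 0 at 763.2 h and did not work there, so a score of 0.25 was used and no barcode was removed. The rule for named genes took, per library, the 8 highest and 8 lowest genes against deep Sertoli barcodes and the 8 highest against other shallow barcodes, by the interval bound nearest 1, with the interval wholly beyond 2-fold, leaving out mitochondrial, ribosomal protein, haemoglobin and rule genes and unnamed gene models. The barcodes, gene lists and tests were chosen with earlier results of these data known, and the long non-coding RNA comparisons (GENCODE M21, matched by gene ID) and the list without Malat1 were added after seeing the data.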

Additional observations from a re-analysis of the deposited data

Results flagged for a closer look

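The nuclear share of shallow relative to deep Sertoli barcodes differed between libraries. It was 1.57 at 0 h, where the same rule gives barcodes with 2.14% of nuclear-retained RNA in shallow and 1.36% in deep Sertoli barcodes, against 0.251, 0.489 and 0.129 at 144, 350.4 and 763.2 h. With 1 library per time the difference between libraries was not tested. At 0 h the mitochondrial share was still lower in shallow (4.36%) than in deep Sertoli barcodes (7.47%), and the collagen genes Col1a1 and Col3a1, known from stromal cells, were 8.93 and 7.73 times as high in shallow as in deep ones.

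Barcodes outside those described above also met the marker limits. The rule takes 1618 barcodes in the 0 h library and 155 in the 556.8 h library, and 1000 barcodes at 144 h and 465 at 350.4 h with at least 500 and under 1000 UMIs meet its marker and mitochondrial limits. At 556.8 h the fitted share of the deep Sertoli profile was 21.6%, and at 0 h it was 74.7%.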

How the results depend on the processing

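Under every setting for which it was computed, the mitochondrial share stayed lower and the germ cell share higher in shallow than in deep Sertoli barcodes in all 3 libraries. The share of nuclear-retained RNAs stayed lower too, except over the list without Malat1 at 350.4 h. The share of annotated long non-coding RNAs, which need not be nuclear, was higher at 350.4 and 763.2 h. Ratios of shallow over deep Sertoli barcodes are given at 144, 350.4 and 763.2 h. From 2000 UMIs, the mitochondrial ratio was 0.688, 0.701 and 0.497, the germ cell ratio 1.14, 3.78 and 2.99, the nuclear ratio 0.281 at 144 h and 0.426 at 350.4 h, and 480 genes were apart at 350.4 h. With a mitochondrial limit of 20%, the mitochondrial ratio was 0.434, 0.553 and 0.465, the nuclear ratio 0.135 at 144 h, the germ cell ratio 3.05 at 350.4 h and 1.5 at 763.2 h, and 1880 genes were apart at 763.2 h. With a marker share of 0.8% or more, the mitochondrial ratio was 0.517, 0.529 and 0.459, the nuclear ratio 0.224, 0.369 and 0.080, and the germ cell ratio 1.59 at 144 h and 3.80 at 763.2 h. Without doublet-like barcodes, the mitochondrial ratio was 0.532 at 144 h and 0.503 at 350.4 h, the nuclear ratio 0.230 at 144 h and 0.114 at 763.2 h, and the germ cell ratio 1.99 at 144 h and 6.55 at 350.4 h. With every barcode weighing the same, the mitochondrial ratio was 0.451, 0.442 and 0.403, the nuclear ratio 0.224 at 144 h, and the germ cell ratio 1.75 at 144 h and 2.18 at 763.2 h. Against deep Sertoli barcodes from 10000 UMIs, the mitochondrial ratio was 0.555 at 144 h and 0.430 at 763.2 h, and the germ cell ratio 5.08 at 350.4 h and 4.34 at 763.2 h. With CPM computed without mitochondrial UMIs, the nuclear ratio was 0.233, 0.427 and 0.110, the germ cell ratio 1.24, 4.26 and 2.64, and 225 genes were apart at 144 h. With genes of 10 UMIs or more, 2140, 3716 and 7250 genes were apart, against 141, 951 and 3001, since more genes of low counts were compared. The ratio over annotated long non-coding RNAs was 0.554, 2.47 and 1.89, and without Gm42418 and AY036118 it was 0.388, 1.13 and 1.75. The nuclear ratio was 0.496, 2.86 and 0.212 over the list without Malat1. The difference of median genes per 1000 UMIs was -34, -30 and -42 without mitochondrial UMIs, against 27, 65 and 78. The cause of the other shifts was not tested. No paired analysis was possible because each time has 1 library. At a median of 1388 to 2206.5 UMIs a shallow Sertoli barcode holds few UMIs of any rare gene, so shares of nuclear and germ cell RNA in single barcodes are coarse, and most of the precision lies in the sums.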

Other observations

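Genes of cell division, such as Mki67 and Top2a, summed to 1.5, 2.18 and 1.80 times their level in deep Sertoli barcodes at 144, 350.4 and 763.2 h. Against the 2-profile mix their sum came out at 1.09, 0.681 and 0.875 times. Whether any shallow Sertoli barcode held a dividing cell was not tested. Genes of lysosomes and engulfment, through which Sertoli cells take up dying germ cells and residual bodies, summed to 0.911, 0.775 and 0.492 times, with 0 of 8, 2 of 7 and 6 of 7 compared 2-fold lower, against 3.61%, 8.18% and 32.1% of all genes. The counts of lower genes were tilted downward, since genes scarce in shallow Sertoli barcodes entered only through deep ones. Genes of the cell death response, such as Bax and Ddit3, summed to 1.14, 1.09 and 1.26 times.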
